A study of Mus musculus with 6 samples.

Results

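The genes described here are 35 genes of the lysosome, chosen by symbol from a list of lysosomal proteases, glycosidases, sulfatases, membrane proteins and the transcription factors that control them, outside ganglioside degradation. All 35 are among the 24346 gene symbols measured, and all 35 passed the filter on low values, as did 14325 genes in all. The rule that chose them uses no expression value, but the genes were chosen with earlier results of these data known. RNA of retinas taken 12 days after birth was sequenced as mRNA libraries. In the 3 control libraries the genotype was Panky+/-;Panky-like+/-;Nrl-/-, so the controls too are labelled as carrying 1 mutant copy of each co-repressor gene. In the 3 triple-deficient libraries it was Panky-/-;Panky-like-/-;Nrl-/-. Both groups are labelled Nrl-/-, for the factor that sets the rod fate, a background the submitters used to raise the share of cone-like cells, so neither group stands for a normal retina. The submitters describe the animals as littermates in 3 pairs, but no label ties a library to a litter or gives the kind of mutation.

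Lysosomes are acidic organelles that take up material from endocytosis and autophagy and break it down with soluble hydrolases. A proton pump in their membrane keeps the lumen acidic, membrane glycoproteins protect the wall, and transporters return the products to the cytoplasm. TFEB and its relative TFE3 bind short E-box sequences near lysosomal genes and raise their transcription when they enter the nucleus, which the kinase mTORC1 prevents in fed cells. Loss of single lysosomal enzymes causes storage diseases, several of which, among them the neuronal ceroid lipofuscinoses and the mucopolysaccharidoses, damage photoreceptors.

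Levels are given as FPKM, sequenced fragments relative to transcript length and library size, so that genes can be compared per length. Panky is Ankrd33, which stood at 105, 104 and 109.7 FPKM in control libraries 1, 2 and 3 and at 56.6, 59.6 and 50.5 FPKM in triple-deficient libraries 1, 2 and 3. Ankrd33b, taken here as Panky-like although no label names it, stood at 35.4, 32.6 and 33.4 FPKM in control libraries 1, 2 and 3 and at 1.80, 1.31 and 1.39 FPKM in triple-deficient libraries 1, 2 and 3. Both lay lower in every triple-deficient library than in any control, with log2 changes of -0.93 (SE 0.0641, limma adjusted p = 0.00274) and -3.80 (SE 0.0825, limma adjusted p = 4.56e-07). RNA of Ankrd33 was thus still present in the triple-deficient libraries. Nrl, labelled -/- in all 6 libraries, was read at 49.2, 38.3 and 45.01 FPKM in control libraries 1, 2 and 3 and at 52.6, 51.3 and 53.7 FPKM in triple-deficient libraries 1, 2 and 3. This RNA was plainly present in every library despite the label, and higher in every triple-deficient library than in any control, a change of 0.25 (SE 0.0824, limma adjusted p = 0.861). No label says which part of any of these genes is altered, so their RNA levels check the genotypes only in part, and the groups are named here by their labels. Estimated depth ran from 18.1 to 27.1 M fragments per library. Cone markers were abundant in every library, with Opn1sw, the short-wavelength opsin, at 1406 to 1568 FPKM. One library stood apart in base composition. In triple-deficient 3, the deviations of all genes tested from their mean correlated with transcript GC content at a Spearman correlation of -0.59, against 0.065 to 0.30 in the other 5, as a description across genes that share each library. Control 1 carried lens transcripts, where 8 lens markers summed to 17.7 FPKM, while no other library exceeded 1.795 FPKM.

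The comparison of triple-deficient with control retinas asks whether lysosomal transcripts differed with the labelled genotype of both co-repressors, in a series whose title names ganglioside metabolism, a lipid pathway that ends in the lysosome. None of the 35 lysosomal genes passed the test. By limma on log2(FPKM + 1), 0 of 35 reached an adjusted p under 0.05, where 0.0279% of all genes tested did, 0.00698% higher and 0.0209% lower. At an unadjusted p under 0.05 there were again 0 of 35, against 5.09% of all genes tested, and the smallest unadjusted p was 0.0750, for Fuca1. The smallest limma adjusted p was 0.943, and in 20 alternative fits with limma 0.632, of which the one with a filter at 5 FPKM tested 31 of the genes. Fitted log2 changes, triple-deficient minus control, ran from -0.14 for Manba to 0.081 for Tfe3, and their median was -0.0068, beside 0.0034 over all genes tested. Each interval is for 1 gene alone and takes no account of the difference in base composition between libraries. The scale of FPKM + 1 understates the change of low genes. At 95% confidence, 34 of the 35 genes had intervals between -0.32 and 0.32 on the log2 scale of FPKM + 1. So did 79.5% of all genes tested and 85.0% of those with a mean at or above the lowest of the 35. Manba was the exception, with an interval from -0.35 to 0.068. In bulk RNA, fewer cells that make a transcript and less of it per cell cannot be told apart, and opposite changes in 2 cell types would cancel.

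**Figure D1:**
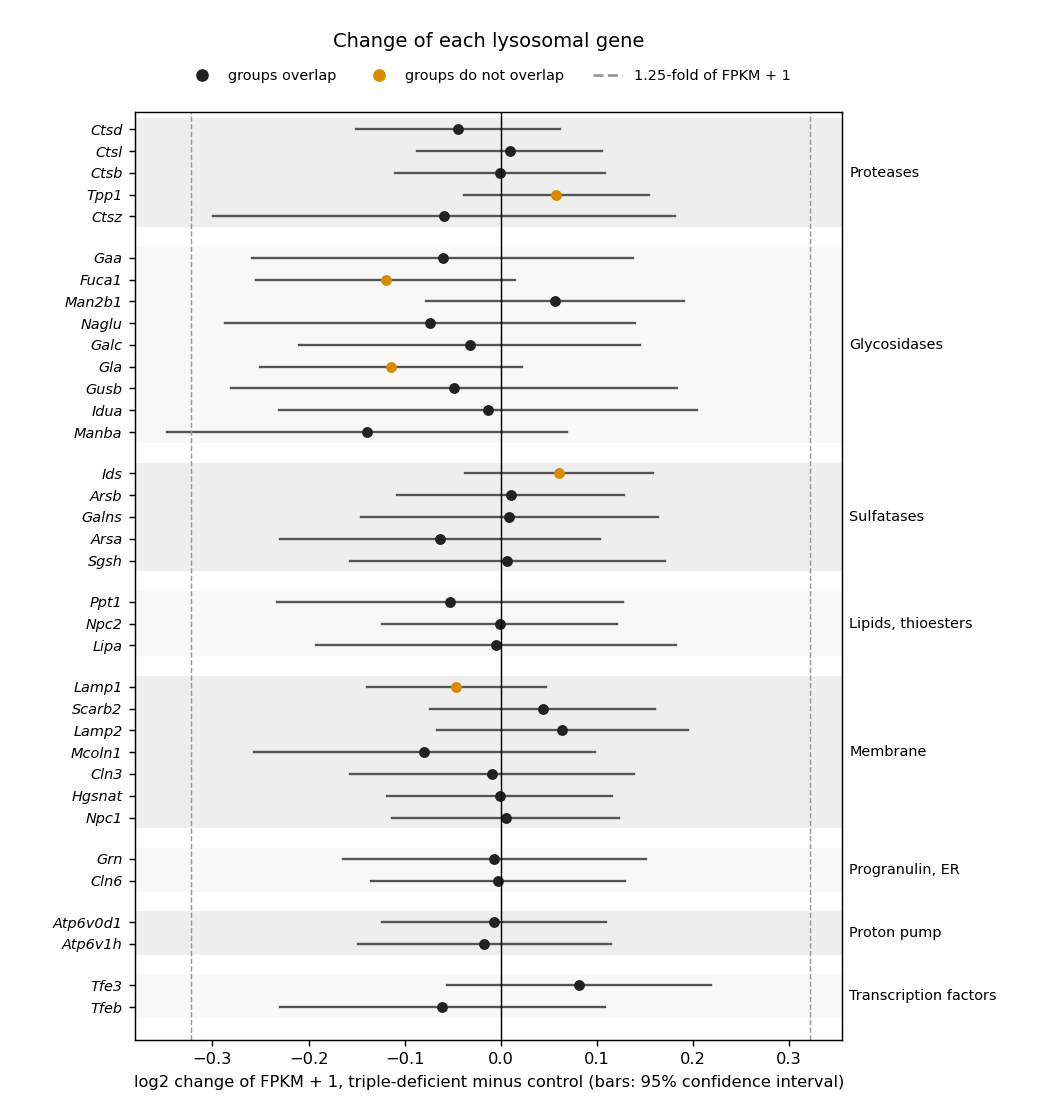
Log2 change of FPKM + 1 between triple-deficient and control retinas for each of the 35 lysosomal genes (x axis), grouped by role (y axis), with the 95% confidence interval of the limma fit as a bar. All 35 bars cross 0, 34 lie inside the dashed lines at -0.32 and 0.32, and the 5 genes in orange are those whose 3 control and 3 triple-deficient values do not overlap.

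The genes spanned a wide range of levels that both groups shared. The highest, Ctsd, had a mean over the 6 libraries 120 times that of the lowest, Manba. Means were at least 100 FPKM for 3 genes, 50 to 100 for 6, 10 to 50 for 15, 5 to 10 for 7, and under 5 FPKM for Tfeb, Idua, Sgsh and Manba. Of the 35, 24 lay above the median gene tested. From Ctsd down, the first 5 places in the order (Ctsd, Atp6v0d1, Lamp1, Ctsl, Ctsb) were separate, in that the values of neighbours did not overlap over the 6 libraries. Below them, most neighbours could not be ranked, and 20 of the 34 neighbouring pairs overlapped. Atp6v1h, Scarb2, Tpp1 and Ppt1 formed 1 such run, and Galns, Naglu, Lipa, Galc, Gla, Gusb and Arsa another. The summed level of the 35 genes was 1278 ± 27.8 FPKM (control) and 1266 ± 18.7 FPKM (triple-deficient; SD, n = 3), or 0.323% to 0.330% of all FPKM in a library. The coefficient of variation over all 6 libraries had a median of 5.42% for these genes, beside 6.87% for all genes tested and 6.14% for those at or above the level of Manba.

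**Figure D2:**
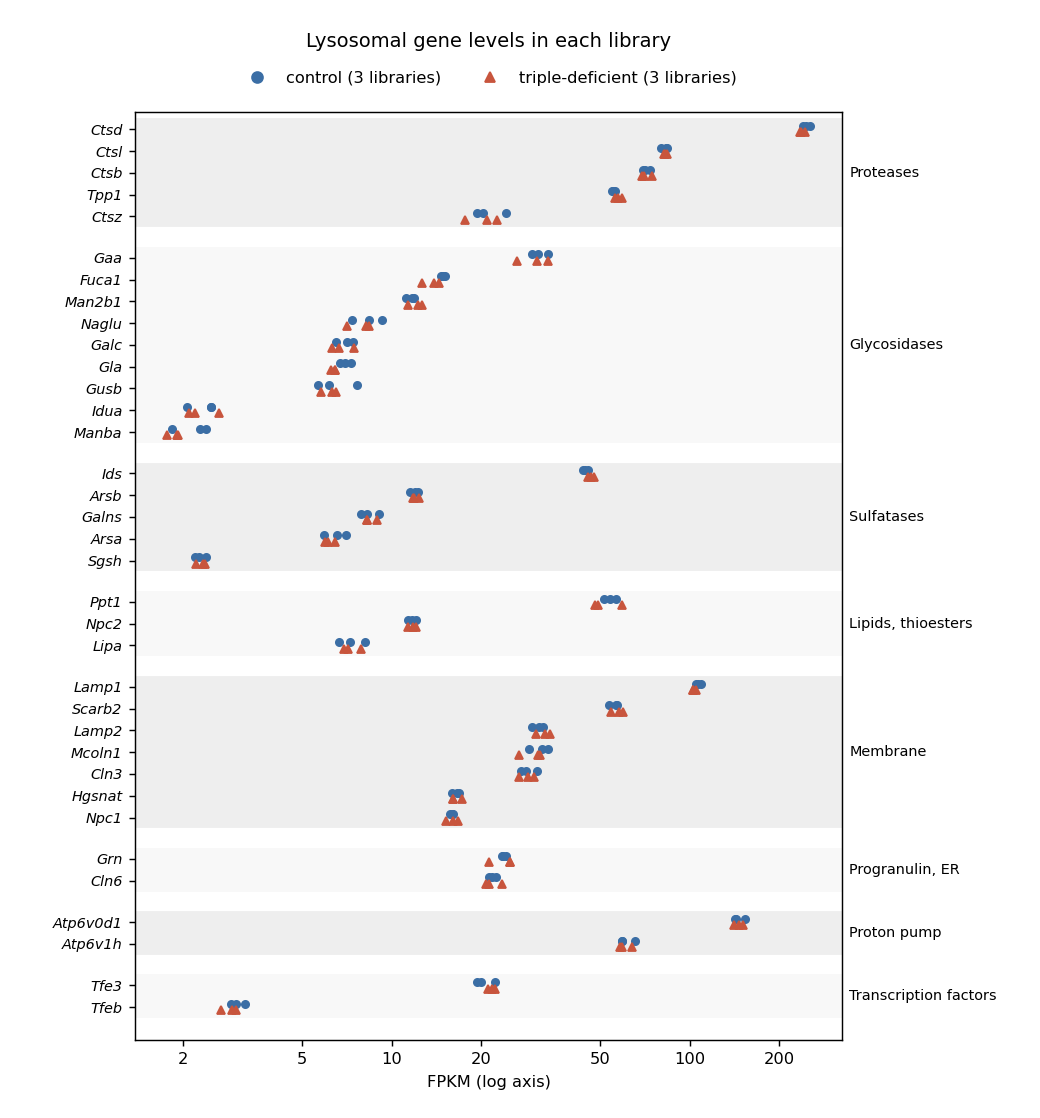
Level of each of the 35 lysosomal genes in each library, in FPKM on a log axis, grouped by role, with circles for the 3 control and triangles for the 3 triple-deficient libraries. Ctsd is the highest gene at 235 to 254 FPKM and Manba the lowest at 1.77 to 2.39 FPKM, and the symbols of both groups lie together along the whole range.

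The proteases, Ctsd, Ctsl and Ctsb, were the most abundant hydrolases of the set. Ctsd encodes cathepsin D, the main aspartic protease of the lysosome, and lies on chromosome 7 of GRCm38 from 142375910 to 142387827. It stood at 245, 239 and 254 FPKM in control libraries 1, 2 and 3 and at 237, 245 and 235 FPKM in triple-deficient libraries 1, 2 and 3. The groups overlapped, because triple-deficient 2 reached the level of the controls, and the log2 change was -0.044 (SE 0.0463, limma adjusted p = 0.959). Ctsl and Ctsb encode cysteine proteases. Ctsl, whose coefficient of variation of 1.81% was the smallest of the 35 genes, was at 82.4 ± 2.03 FPKM (control) and 83.0 ± 1.12 FPKM (triple-deficient), and Ctsb at 71.3 ± 2.01 FPKM (control) and 71.3 ± 2.87 FPKM (triple-deficient), given like all such pairs as mean ± SD with n = 3 in each group. Their changes were 0.0093 and -0.0012 on the log2 scale. Tpp1 encodes tripeptidyl peptidase, which trims short peptides from protein ends and is lost in a late infantile form of ceroid lipofuscinosis. It was measured at 54.7, 55.2 and 56.1 FPKM in control libraries 1, 2 and 3 and at 57.5, 59.2 and 56.2 FPKM in triple-deficient libraries 1, 2 and 3. Each triple-deficient value lay above each control value, but triple-deficient 3 exceeded control 3 only by a fraction of an FPKM, and the change of 0.058 (SE 0.0421, limma adjusted p = 0.948) did not pass. Ctsz, a carboxypeptidase, varied most among the proteases, at 19.3, 20.3 and 24.2 FPKM in the controls and 20.9, 22.5 and 17.6 FPKM in the triple-deficient ones. The highest value was that of control 3 and the lowest that of triple-deficient 3.

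Glycosidases, which cut sugars from glycogen, glycoproteins, glycosaminoglycans and glycolipids, made up the role with the most changes below 0 by count. Of 9, 8 had a fitted change below 0 and 1 above, and 0 passed the test. With the GC trend of each library removed, 5 of 9 were below 0, and without triple-deficient 3, 6 of 9. Gaa, the acid glucosidase that degrades glycogen and is lost in Pompe disease, was the highest of them and was found at 31.1, 29.7 and 33.4 FPKM in control libraries 1, 2 and 3 and at 33.4, 30.8 and 26.3 FPKM in triple-deficient libraries 1, 2 and 3. Only triple-deficient 3 lay below the controls, and with the GC trend removed the change went from -0.061 to 0.011.

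Fuca1 and Gla had groups that did not overlap. Fuca1 encodes the fucosidase of glycoprotein breakdown and stood at 14.6, 14.9 and 15.1 FPKM in controls 1, 2 and 3 and at 13.8, 14.4 and 12.6 FPKM in triple-deficient libraries 1, 2 and 3. All 3 triple-deficient values were lower, and the fitted change was -0.12 (SE 0.0587, limma adjusted p = 0.943). Gla encodes the galactosidase that is lost in Fabry disease and acts on globotriaosylceramide. It was at 6.70, 7.33 and 6.97 FPKM in the controls and 6.26, 6.45 and 6.46 FPKM in the triple-deficient libraries, again all lower, with a change of -0.11 (SE 0.0593, limma adjusted p = 0.943). The means differed by -8.38% for Fuca1 and -8.76% for Gla, and neither gene passed.

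The glycosidase of glycoprotein mannose chains, Man2b1, went the other way within the spread, at 11.6 ± 0.373 FPKM (control) and 12.1 ± 0.657 FPKM (triple-deficient), a change of 0.057 (SE 0.0585, limma adjusted p = 0.959). Manba, which removes the last beta-linked mannose, had the largest fitted change of the set and the lowest level. It stood at 2.39, 2.27 and 1.83 FPKM in control libraries 1, 2 and 3 and at 1.77, 1.92 and 1.90 FPKM in triple-deficient libraries 1, 2 and 3. Controls 1 and 2 were higher than all triple-deficient libraries, while control 3 lay inside their range, and the change was -0.14 (SE 0.0905, limma adjusted p = 0.946). With a pseudocount of 0.1 in place of 1 it was -0.20. Galc, the galactosylceramidase lost in Krabbe disease, was at 7.002 ± 0.463 FPKM (control) and 6.83 ± 0.602 FPKM (triple-deficient).

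Among sulfatases, which remove sulfate groups, 4 of 5 fitted changes were above 0, the median was 0.0090, and 0 passed. Ids, the iduronate sulfatase of Hunter syndrome, was by far the most abundant. It was measured at 44.6, 45.6 and 43.9 FPKM in control libraries 1, 2 and 3 and at 45.7, 46.5 and 47.8 FPKM in triple-deficient libraries 1, 2 and 3. The lowest triple-deficient value exceeded the highest control by a fraction of an FPKM, and the change of 0.061 (SE 0.0426, limma adjusted p = 0.946) did not pass. Sgsh, the sulfamidase of heparan sulfate, was near the bottom of the whole set in every library, at 2.196 to 2.39 FPKM. Arsa, which acts on the myelin lipid sulfatide, was at 6.51 ± 0.557 FPKM (control) and 6.18 ± 0.250 FPKM (triple-deficient), and Arsb, which acts on dermatan sulfate, at 11.9 ± 0.346 FPKM (control) and 12.0 ± 0.284 FPKM (triple-deficient). Galns, the sulfatase of keratan sulfate, stood at 8.42 ± 0.608 FPKM (control) and 8.48 ± 0.391 FPKM (triple-deficient).

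Breakdown of glycosaminoglycans takes enzymes from several of these roles in a fixed order, each acting on 1 kind of group at the end of the chain. Ids, Idua, Sgsh, Hgsnat, Naglu and Gusb act on heparan sulfate. Their mean levels over the 6 libraries were unequal, from 45.7 FPKM for Ids and 16.5 FPKM for Hgsnat through 8.12 FPKM for Naglu and 6.35 FPKM for Gusb to 2.32 FPKM for Idua and 2.29 FPKM for Sgsh. The values of Idua, the iduronidase, and Sgsh overlapped. Naglu, the glucosaminidase, was at 8.36 ± 0.980 FPKM (control) and 7.88 ± 0.703 FPKM (triple-deficient). Gusb, the glucuronidase, was at 6.50 ± 1.05 FPKM (control) and 6.20 ± 0.363 FPKM (triple-deficient), and Idua at 2.33 ± 0.241 FPKM (control) and 2.31 ± 0.295 FPKM (triple-deficient). With Galns and Arsb, 4 of these 8 genes had changes above 0 and 4 below, with a median of 0.0028, and their intervals lay between -0.29 and 0.20.

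Of the 3 soluble proteins that handle lipids and thioesters, 0 passed. Ppt1 encodes the thioesterase that takes palmitate off degraded proteins and is lost in infantile ceroid lipofuscinosis. It stood at 51.8, 54.0 and 56.5 FPKM in control libraries 1, 2 and 3 and at 48.3, 49.4 and 59.2 FPKM in triple-deficient libraries 1, 2 and 3. Triple-deficient 1 and 2 were the lowest of all 6 libraries and triple-deficient 3 the highest, so the change of -0.053 (SE 0.0784, limma adjusted p = 0.965) rested on opposite deviations within 1 group. Without triple-deficient 3 it was -0.14, still not past the threshold. Lipa, the acid lipase of cholesteryl esters, was at 7.36 ± 0.747 FPKM (control) and 7.32 ± 0.501 FPKM (triple-deficient). Npc2, which binds the freed cholesterol and hands it to Npc1 in the membrane, was at 11.7 ± 0.396 FPKM (control) and 11.7 ± 0.344 FPKM (triple-deficient), and Npc1 at 15.9 ± 0.164 FPKM (control) and 16.0 ± 0.735 FPKM (triple-deficient). Their log2 changes were -0.0013 and 0.0049.

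Among membrane proteins, Lamp1 was the most abundant. It encodes a glycoprotein that lines the lysosomal wall and lies on chromosome 8 from 13159161 to 13175338. Its values were 105, 107 and 109 FPKM in controls 1, 2 and 3 and 103, 103 and 105 FPKM in triple-deficient libraries 1, 2 and 3. Every triple-deficient value was lower than every control, by a fraction of an FPKM at the closest, and the change was -0.046 (SE 0.0407, limma adjusted p = 0.958). Lamp2, its relative and the receptor of chaperone-mediated autophagy, was at 29.6, 31.2 and 32.1 FPKM in the controls and 30.4, 34.1 and 32.8 FPKM in the triple-deficient ones. The groups overlapped, the change had the opposite sign at 0.064 (SE 0.0569, limma adjusted p = 0.958), and neither of the 2 genes passed. Mcoln1, the calcium channel TRPML1, was at 33.5, 32.0 and 28.9 FPKM in the controls and 31.5, 31.0 and 26.8 FPKM in the triple-deficient libraries, where triple-deficient 3 was the lowest.

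Scarb2, the receptor that carries glucocerebrosidase to the lysosome, was at 55.7 ± 1.81 FPKM (control) and 57.5 ± 2.73 FPKM (triple-deficient). Cln3, lost in juvenile ceroid lipofuscinosis, stood at 28.7 ± 1.90 FPKM (control) and 28.5 ± 1.70 FPKM (triple-deficient). Hgsnat, the acetyltransferase that works on heparan sulfate across the membrane, was at 16.5 ± 0.426 FPKM (control) and 16.5 ± 0.620 FPKM (triple-deficient). Grn encodes progranulin, which is cut into granulins in the lysosome, and was at 23.5, 23.6 and 24.2 FPKM in the controls and 24.9, 25.1 and 21.1 FPKM in the triple-deficient libraries. Triple-deficient 1 and 2 were its highest values and triple-deficient 3 its lowest. Cln6 encodes an endoplasmic reticulum protein that helps lysosomal enzymes leave that compartment, and was at 21.8 ± 0.548 FPKM (control) and 21.8 ± 1.45 FPKM (triple-deficient). Atp6v0d1 and Atp6v1h encode a membrane-side and a cytoplasmic subunit of the proton pump. Atp6v0d1 was at 142, 144 and 154 FPKM in control libraries 1, 2 and 3 and at 146, 151 and 141 FPKM in triple-deficient libraries 1, 2 and 3, with overlapping groups and a change of -0.0068 (SE 0.0507, limma adjusted p = 0.995). Atp6v1h was at 61.3 ± 3.49 FPKM (control) and 60.5 ± 2.96 FPKM (triple-deficient).

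The 2 transcription factors differed in level from each other, and neither passed the test between the groups. Tfe3 was 6.62 to 8.29 times as high as Tfeb in the 6 libraries on the FPKM scale. Tfeb, on chromosome 17 from 47737037 to 47792416, stood at 2.89, 3.01 and 3.22 FPKM in control libraries 1, 2 and 3 and at 3.01, 2.93 and 2.68 FPKM in triple-deficient libraries 1, 2 and 3. Tfe3, on chromosome X from 7762530 to 7775202, stood at 19.3, 19.9 and 22.2 FPKM in control libraries 1, 2 and 3 and at 21.8, 21.1 and 22.2 FPKM in triple-deficient libraries 1, 2 and 3. For both, the groups overlapped, and changes were -0.061 (SE 0.0737, limma adjusted p = 0.959) for Tfeb and 0.081 (SE 0.0600, limma adjusted p = 0.951) for Tfe3. The sign for Tfeb depended on the processing. Its transcript has the highest GC content of the 35 genes, 63.2%, and with the GC trend of each library removed its change was 0.079. Mitf, a further relative known from pigment cells, was at 1.14 to 1.87 FPKM over the 6 libraries, and Tfec was listed at 0 in every library.

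**Figure D3:**
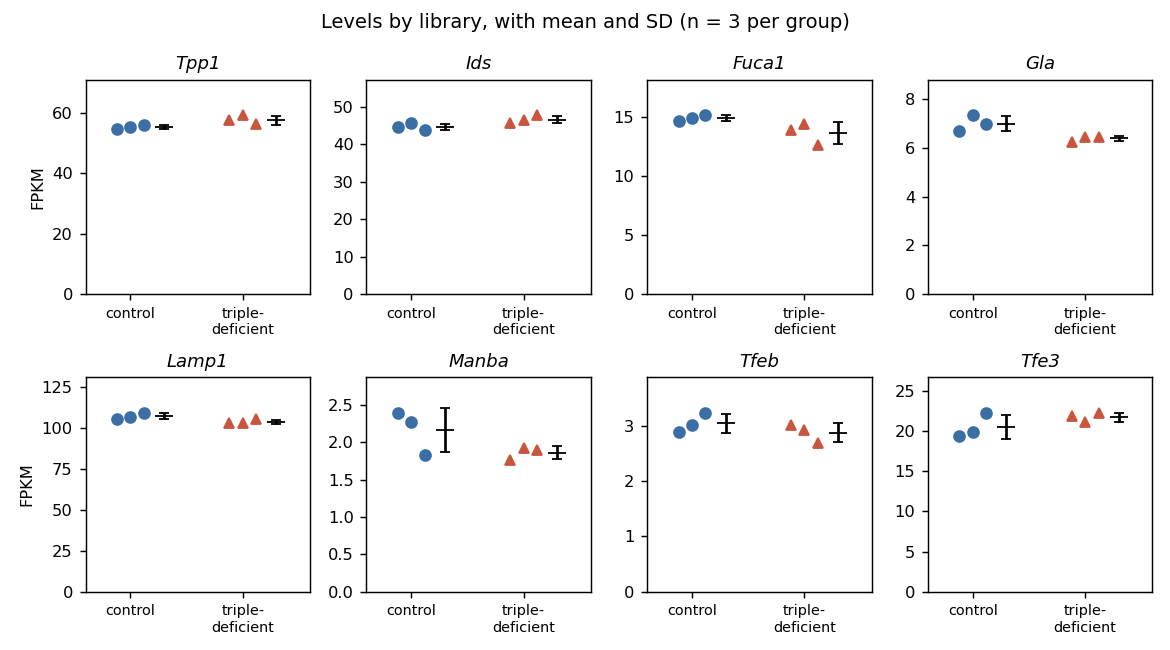
FPKM of 8 lysosomal genes in each library (y axis from 0), with circles for control and triangles for triple-deficient libraries and the mean and SD of each group (n = 3) beside them. Tpp1 and Ids lie slightly higher and Fuca1, Gla and Lamp1 slightly lower in all 3 triple-deficient libraries, while the groups of Manba, Tfeb and Tfe3 overlap.

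Groups did not overlap for 5 of the 35 genes, 14.3%, where the share over all genes tested was 10.5%. Tpp1 and Ids were higher, where 4.86% of all genes tested were, and Fuca1, Gla and Lamp1 lower, where 5.64% were. The count was 3 (8.57%) with quantile normalization, where 10.6% of all genes were separate, and 3 (8.57%) with the GC trend removed, where 10.96% were. With 5 libraries separate groups are more frequent for every gene. It was 8 (22.9%) without control 3, beside 21.9% of all genes, 8 (22.9%) without triple-deficient 2, beside 18.9%, and 10 (28.6%) without triple-deficient 3, beside 19.2%. Fitted changes were below 0 for 24 of the 35 genes, 68.6%, and for 48.2% of all genes tested. Over the 20 alternatives the number below 0 ran from 15, with library quality weights, to 24. It was 18 once the GC trend was removed, 16 without control 3, 17 without triple-deficient 3 and 22 without triple-deficient 2. The genes cover GC contents from 37.6% to 63.2%, with a median of 51.3%, against 49.8% for all genes tested. In triple-deficient 3, deviations of the 35 genes correlated with GC content at a Spearman correlation of -0.49 (n = 35 genes of the same library, a description), against -0.26 to 0.38 in the other 5. That library held the lowest of the 6 values for 12 genes, and control 3 the highest for 11.

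**Figure D4:**
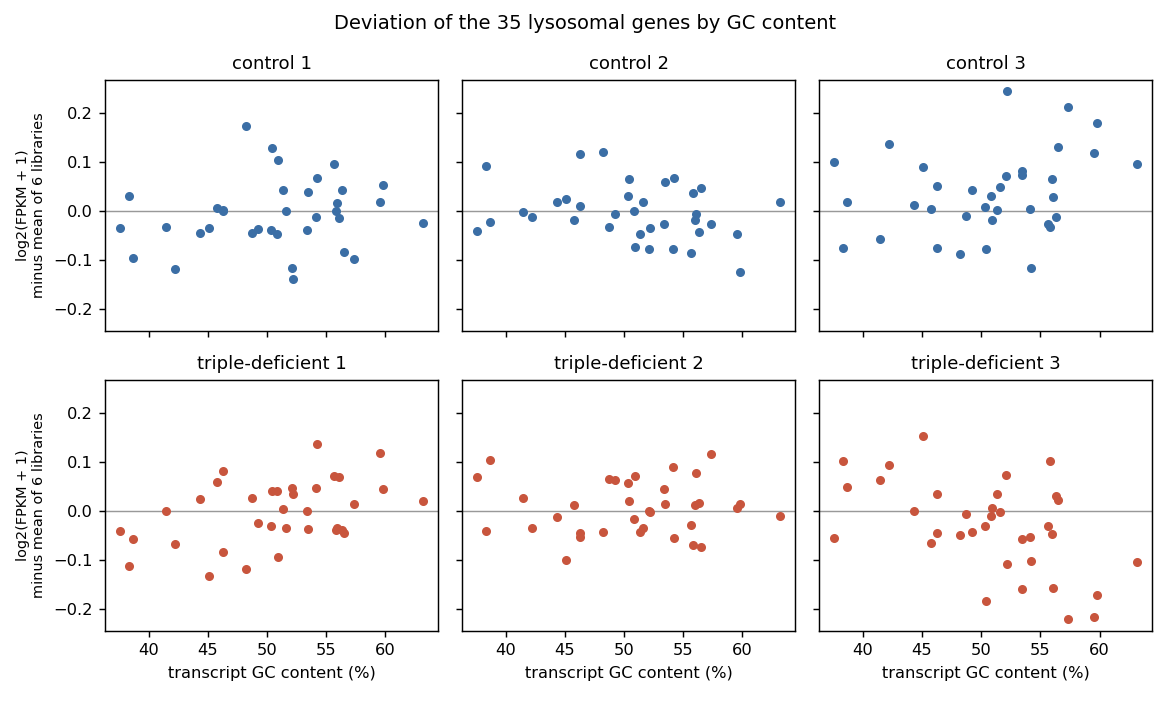
Deviation of log2(FPKM + 1) of each of the 35 lysosomal genes from its mean over the 6 libraries (y axis) against the GC content of its longest transcript in percent (x axis), 1 panel for each library. In triple-deficient 3 the genes of highest GC content lie mostly below 0 (Spearman correlation -0.49), and that correlation in the other 5 panels ran from -0.26 to 0.38.

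A feature that some of these genes have, and that was not used to choose them, is the E-box CACGTG near the start site. It is the core of the element that TFEB binds. RefSeq promoter windows of GRCm38.p6, from 250 bases before to 50 after a start, were at hand for 30 of the 35 genes, without Ctsb, Galns, Npc1, Hgsnat and Atp6v1h. CACGTG occurred in the windows of 11 of 30 genes, 36.7%, and in 8.09% of all 27025 symbols or 11.5% of the 10794 tested ones. TCACGTG or its reverse complement CACGTGA, which contain CACGTG, occurred in 10 of 30, 33.3%, against 4.29% and 6.77%. The full palindrome TCACGTGA occurred in 5 of 30, 16.7%, against 1.12% and 2.08%. Of the genes with a match to TCACGTG, 1 stretch each is given here, on the strand of the gene, 5′ to 3′, with the match in capitals, because they hold the element that the background ties to TFEB. A match is a string of letters, not a measured binding site.
Arsa: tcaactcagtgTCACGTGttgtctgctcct
Atp6v0d1: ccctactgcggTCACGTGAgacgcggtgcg
Cln3: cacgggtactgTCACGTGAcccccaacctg
Ctsd: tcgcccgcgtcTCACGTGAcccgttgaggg
Gaa: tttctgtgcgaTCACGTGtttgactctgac
Gla: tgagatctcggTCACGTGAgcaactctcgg
Lamp1: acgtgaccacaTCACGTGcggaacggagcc
Mcoln1: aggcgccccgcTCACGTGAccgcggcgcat
Naglu: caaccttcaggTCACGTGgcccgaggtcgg
Sgsh: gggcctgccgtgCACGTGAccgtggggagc
The Ctsd match is centred 95 bases before the start, at chr7:142387908-142387937 on the minus strand, and that of Atp6v0d1 at the start itself, at chr8:105566050-105566079 on the minus strand. Gla holds a second TCACGTGA, and Lamp1 holds 4 matches to TCACGTG in either orientation, centred 12 to 58 bases before its start. Ctsd, Cln3 and Mcoln1 each hold a further match in either orientation, centred 242, 146 and 68 bases before their starts. The 10 genes with TCACGTG had a median log2 change of -0.053, from -0.11 to 0.0069, and the 20 without it a median of -0.0041. With the GC trend of each library removed, changes of the 10 ran from -0.13 for Gla to 0.038 for Sgsh. Those of Gaa (0.011), Naglu (0.0028) and Atp6v0d1 (0.0060) moved from below 0 to above it, and the others kept their sign. The difference between the medians was not tested. None of the 30 passed the test.

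Genes that work with this set were counted in 6 further lists of 113 genes, of which 111 were tested. Again 0 of 111 passed in either direction by limma, and 3 had an unadjusted p under 0.05, where 5.09% of all genes tested did. Groups did not overlap for 8 of the 111, 7.21%, beside 10.5% of all genes tested. Among the other proton pump subunits, 0 of 17 passed. Atp6v1b2 was at 230.5 ± 2.05 FPKM (control) and 226 ± 5.34 FPKM (triple-deficient), and Atp6v0e2 at 228 ± 9.27 FPKM (control) and 232 ± 7.89 FPKM (triple-deficient). Atp6v0c, which forms the proton-carrying ring, had the largest fitted change of all these lists and stood at 652, 656 and 533 FPKM in control libraries 1, 2 and 3 and at 557, 447 and 366 FPKM in triple-deficient libraries 1, 2 and 3. The groups overlapped between control 3 and triple-deficient 1, and the change was -0.44 (SE 0.147, limma adjusted p = 0.861).

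A copy of that gene which RefSeq lists as a transcribed pseudogene, Atp6v0c-ps2, was high where the gene was low. The copy was at 0.0266, 0.0332 and 156 FPKM in controls 1, 2 and 3 and at 107, 219.8 and 205 FPKM in triple-deficient libraries 1, 2 and 3. Added to Atp6v0c, the values were 652, 656 and 689 FPKM in the controls against 664, 667 and 570.1 FPKM in the triple-deficient libraries, so that 5 of 6 lay within 652 to 689 FPKM. For the sum the log2 change was -0.074 (SE 0.0719, limma adjusted p = 0.959). The files do not say how reads shared by both copies were assigned, so the value of Atp6v0c alone is uncertain. Singling out this pair was done after its values were seen.

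Of the genes around TFEB, which include mTORC1, the Rag GTPases and the Ragulator scaffold, 0 of 20 tested passed. Rraga and Lamtor1 were at 66.1 ± 2.49 FPKM (control) and 62.3 ± 2.18 FPKM (triple-deficient) and at 59.2 ± 2.95 FPKM (control) and 54.3 ± 4.37 FPKM (triple-deficient), with Lamtor2 at 54.5 ± 3.50 FPKM (control) and 55.2 ± 3.98 FPKM (triple-deficient). The smallest p in the list was that of Lamtor3, a Ragulator subunit, at 44.2 ± 1.73 FPKM (control) and 48.1 ± 2.31 FPKM (triple-deficient), a change of 0.12 (SE 0.0528, limma adjusted p = 0.943). The list's median change was 0.0091.

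For delivery of enzymes through mannose 6-phosphate and sortilin, 0 of 12 passed, and all intervals lay between -0.25 and 0.19. M6pr, a mannose 6-phosphate receptor, was at 43.0 ± 1.75 FPKM (control) and 44.0 ± 1.69 FPKM (triple-deficient). Gnptg, a subunit of the enzyme that makes the tag, was at 51.6 ± 0.552 FPKM (control) and 51.9 ± 3.50 FPKM (triple-deficient), and the adaptor subunit Ap1m1 at 54.4 ± 2.14 FPKM (control) and 52.6 ± 2.88 FPKM (triple-deficient). Gga3, an adaptor of the same route, was at 19.9 ± 0.238 FPKM (control) and 19.1 ± 1.40 FPKM (triple-deficient).

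Among other soluble enzymes 0 of 20 tested passed, with a median of -0.028. Lgmn, the asparagine-specific protease legumain, was at 106 ± 3.49 FPKM (control) and 106 ± 3.01 FPKM (triple-deficient), and Ctsf at 97.8 ± 2.18 FPKM (control) and 94.7 ± 3.67 FPKM (triple-deficient). Ctso, a cysteine protease, was at 7.31, 7.71 and 7.09 FPKM in the 3 controls against 6.19, 6.10 and 7.08 FPKM in the 3 triple-deficient ones, all lower, with a change of -0.17 (SE 0.0711, limma adjusted p = 0.943). In the list of other membrane proteins 0 of 20 passed, with Laptm4b at 218 ± 3.32 FPKM (control) and 211 ± 6.36 FPKM (triple-deficient) and Laptm4a at 66.3 ± 2.09 FPKM (control) and 69.6 ± 0.877 FPKM (triple-deficient). Pld3 was at 67.2 ± 1.14 FPKM (control) and 68.7 ± 6.48 FPKM (triple-deficient), and Tmem192 at 15.7 ± 0.601 FPKM (control) and 14.4 ± 0.370 FPKM (triple-deficient).

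Autophagy genes, which bring cargo to the lysosome, showed 0 of 22 passing and a median of -0.0022. The LC3 relatives Gabarapl2, Gabarapl1 and Gabarap were at 165 ± 7.36 FPKM (control) and 166 ± 6.53 FPKM (triple-deficient), at 149.5 ± 14.8 FPKM (control) and 146 ± 3.95 FPKM (triple-deficient) and at 140.0 ± 12.9 FPKM (control) and 132 ± 8.53 FPKM (triple-deficient). Sqstm1, the cargo receptor p62, was at 128, 131 and 136 FPKM in control libraries 1, 2 and 3 and at 125, 125 and 116 FPKM in triple-deficient libraries 1, 2 and 3. Every triple-deficient value lay under every control, and the fitted change was -0.11 (SE 0.0498, limma adjusted p = 0.943).

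**Figure D5:**
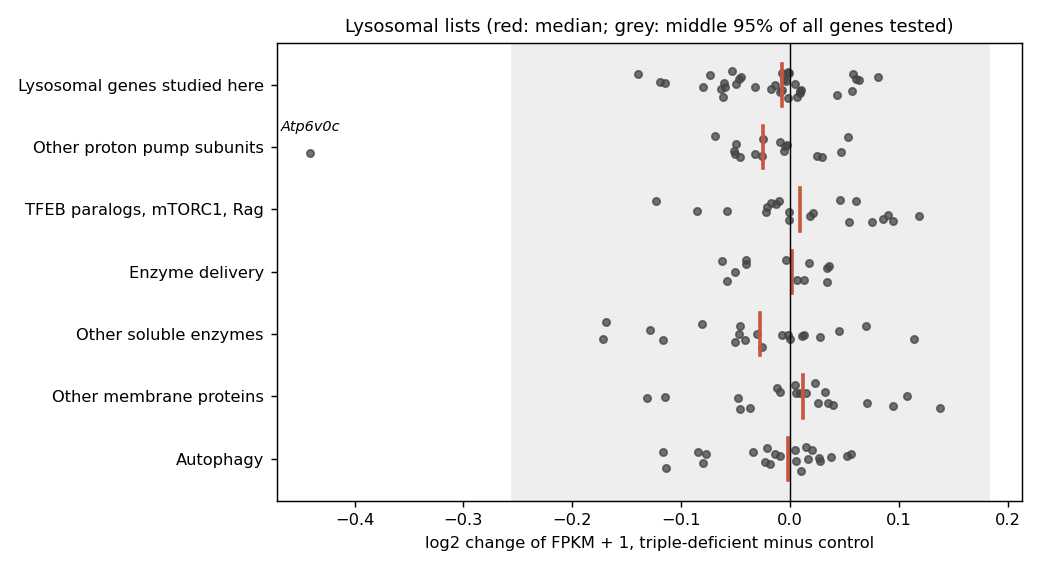
Log2 change of FPKM + 1 between triple-deficient and control retinas (x axis) for each tested gene of the 35 lysosomal genes and of 6 related lists (rows), with the list median in red and the middle 95% of all genes tested in grey, from -0.26 to 0.18. Every gene but Atp6v0c, at -0.44, lies in the grey band.

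Microglia, pigment epithelium, Müller glia and cones were followed through their markers. Summed levels of 10 microglial markers ran from 53.0 to 60.2 FPKM (control) and from 51.9 to 56.9 FPKM (triple-deficient), with 0 of 10 passing and none at 0. Of the 10, 9 had changes below 0, where 48.2% of all genes tested did, and their median was -0.073. For 9 pigment epithelium markers the sums were 45.2 to 58.5 FPKM (control) and 33.6 to 47.4 FPKM (triple-deficient). Dct, a large part of these sums, was at 21.3 ± 4.57 FPKM (control) and 25.4 ± 5.67 FPKM (triple-deficient). It was the only marker tested here with a change above 0, and 6 had changes below 0. Of 7 tested, 0 passed. Of these, 4 (57.1%) were lower in every triple-deficient library than in any control, beside 5.64% of all genes tested. They were Ttr, Tyrp1, Pmel and Tyr, whose means differed by -44.3%, -43.7%, -58.1% and -39.1%. Ttr, the highest of them, was at 15.8 ± 3.26 FPKM (control) and 8.81 ± 1.66 FPKM (triple-deficient). No sum without Dct was taken. An unadjusted p under 0.05 by limma was found for 3 of the 7, beside 5.09% of all genes tested. The part of these markers in the lysosomal values was not tested. Müller glia markers (7) summed to 1809 to 1863 FPKM (control) and to 1643 to 1769 FPKM (triple-deficient). The lower sums came with Apoe, a lipid carrier also made by other cells, at 599 ± 30.5 FPKM (control) and 499 ± 55.9 FPKM (triple-deficient). Without it the other 6 markers summed to 1198 to 1295 FPKM and to 1206 to 1252 FPKM, which overlap. Apoe was set apart after its values were seen. Of the 7, 5 had changes above 0, the median was 0.012, and 0 passed. Cone markers (8) summed to 5288 to 5439 FPKM (control) and 4867 to 5408 FPKM (triple-deficient).

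Of the lysosomal genes, 4 are X-linked (Lamp2, Ids, Gla and Tfe3), and each group holds libraries of both sexes by their Xist and Y-linked levels. With the sex of the library in the model, the changes were 0.069 for Lamp2, 0.066 for Ids, -0.11 for Gla and 0.044 for Tfe3, and 0 of 35 genes passed.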

How the data were processed

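Gene-level FPKM tables of 6 libraries, 3 control and 3 triple-deficient, were used as the authors deposited them. Per the labels' protocols, RNA was isolated with TRIzol and libraries made with a stranded TruSeq mRNA kit. The submitters' processing notes name TopHat2 2.1.1, Bowtie2 2.3.5.1, Cufflinks 2.2.1, Cuffdiff and mm10, without their settings. Counts were not used here, so fragments per library were estimated from the step size of low FPKM values (115 genes).

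FPKM + 1 were log2 transformed. Genes that averaged 0.5 FPKM or more over the 6 libraries (14325 of 24346) were fitted with limma 3.58.1 in R 4.3.3 (mean-variance trend, two-sided, Benjamini-Hochberg over all genes tested, threshold 0.05). A fold on this scale understates the change of low genes. The script was tested on simulated data, in which 200 genes of each draw were changed. It recovered 27.5% of the changes of 1.25-fold, 67.8% of those of 1.5-fold and 87.9% of those of 2-fold. Transcript GC content was that of the longest GENCODE transcript of each gene symbol. Promoter windows came from RefSeq, GRCm38.p6. The 35 genes, the related lists and the markers were chosen with earlier results of these data known. All 35 were named. Of each related list the text names the 3 genes of highest mean, any gene that passed and the gene of smallest p, except for a gene that is not reported here. Alternatives were other pseudocounts, filters, normalizations, shrinkage, library weights, a GC correction, the replicate block, the sex of the library, and leaving out each library.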

Additional observations from a re-analysis of the deposited data

How the results depend on the processing

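No lysosomal gene that was tested passed in any of 20 alternatives (31 were tested with the filter at 5 FPKM, which left out Tfeb, Idua, Sgsh and Manba, and 35 in the others), where fitted changes ran from -0.22 to 0.14. The sign changed in at least 1 alternative for 22 of the 35 genes, all of them at 0.073 or less in size in the main analysis. The count of all genes past the threshold, 4, was 2 without the filter on low values and 2 with robust shrinkage, and 3 to 11 when 1 library was left out (8 without control 3, 11 without triple-deficient 1 and 11 without triple-deficient 3). At an unadjusted p under 0.05 there was 1 lysosomal gene with the GC trend removed (Gla, -0.13), and 0 to 2 when 1 library was left out: Manba (-0.22) and Tfe3 (0.14) without control 3, Fuca1 (-0.16) without triple-deficient 2 and Ppt1 (-0.14) without triple-deficient 3. Lysosomal genes with separate groups numbered 5, but 3 with quantile normalization, 3 with the GC trend removed, 3 with the replicate block and the GC trend removed, and 6 to 10 when 1 library was left out. That is 8.57% beside 10.6%, 10.96% and 10.96% of all genes, and 17.1% to 28.6% beside 18.5% to 22.8% of all genes with 1 library left out. Their median change ran from -0.031 (without triple-deficient 2) to 0.0060 (without triple-deficient 3). The cause of these differences was not tested.

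Replicate numbers were not taken as pairs: deviations of same-numbered libraries correlated at 0.022, 0.11 and 0.067 (across genes), and not every library correlated best with its own number. With the replicate block, 0 lysosomal genes and 4 genes in all passed. Summing Atp6v0c with its copy, chosen after seeing the data, took its change from -0.44 to -0.074. Depth limits the lowest genes most, with an estimated 114 fragments for Tfeb in its lowest library.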
